A study of Mus musculus with 45 samples.

Results

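Liver and skeletal muscle of 1 strain of mice on 1 diet were compared here. The arrays were the 4 liver and 3 skeletal muscle arrays of C57Bl/6 (B6) mice on the low-fat diet, chosen by their labels, and they were 7 of the 45 arrays of the series. With Affymetrix arrays, the series profiled 3 tissues, liver, skeletal muscle and epididymal fat, in B6 and in 129S6/SvEvTac (129S6) mice, and each strain was kept on a diet labelled low-fat or high-fat. All mice were 6 months old, no genetic manipulation is given in the labels, and RNA was pooled from 2 to 3 mice for each array, of which 25 µg was labelled. A p-value therefore measures the spread between pools, and whether a mouse gave both tissues was not stated. The composition of 1 diet is described for the series, without saying which of the diets it was, so the groups are called low-fat and high-fat as labelled. The muscle that was taken is not named either.

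Liver makes most proteins of blood plasma, breaks down amino acids, makes glucose between meals, turns cholesterol into bile acids and chemically modifies drugs and steroids. Skeletal muscle is built from long fibres packed with actin and myosin, which contract when calcium is released from an internal store, and it burns glycogen, glucose and fatty acids to remake ATP. Many enzymes of energy metabolism exist as separate genes for liver or widespread use and for muscle. The running numbers in the array names fall in separate ranges for liver and muscle, so tissue and array run cannot be told apart, and the results below concern differences of at least 4-fold. In whole tissue, fewer cells of a type and less RNA per cell cannot be told apart either.

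The labelled tissues matched their defining markers. Alb, the gene of serum albumin, stood at 13.24, 13.27, 13.14 and 13.18 log2 units on the 4 liver arrays and at 5.87, 5.34 and 5.72 on muscle arrays 13, 14 and 15. Acta1, the skeletal muscle actin of the thin filament, stood at 13.75, 14.00 and 13.66 on the muscle arrays and at 5.36, 5.36, 5.51 and 7.48 on liver arrays 1 to 4. Ckm, the muscle creatine kinase, stood at 11.78, 12.08 and 12.05 in muscle and between 4.92 and 5.17 in liver. No value of one tissue reached the other for any of these genes, and liver array 4 stood 1.97 units above the next liver array for Acta1. Of 43 genes chosen by rule among those much higher in muscle, 22 had their highest liver value on array 4, among them Tnnt3 (5.46), Myl1 (6.49), Mb (4.91) and Fabp3 (4.99). For others the margin was small, as for Ckm (5.174 beside 5.161 on array 1) and Pygm (3.727 beside 3.713 on array 3). Arrays 1, 2 and 3 were highest for 13, 2 and 6 of the 43.

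The sequences before the starts of these genes are shown because the genes mark the tissues most plainly and their promoters are classical examples of tissue-restricted control. They are the 250 bases upstream of the start in RefSeq, build GRCm38.p6, written 5′ to 3′ in the direction of the gene, at chr5:90460620-90460869 on the plus strand for Alb, chr8:123894776-123895025 on the minus strand for Acta1 and chr7:19410844-19411093 on the plus strand for Ckm. Capitals mark letters that match, on either strand, the HNF1 letters (GTTAAT), the core of an HNF4 site (CAAAGTC) or a C/EBP site (TTGCNNAA) in Alb, and an E-box (CANNTG), a CArG box or a MEF2 site in Acta1 and Ckm.
Alb: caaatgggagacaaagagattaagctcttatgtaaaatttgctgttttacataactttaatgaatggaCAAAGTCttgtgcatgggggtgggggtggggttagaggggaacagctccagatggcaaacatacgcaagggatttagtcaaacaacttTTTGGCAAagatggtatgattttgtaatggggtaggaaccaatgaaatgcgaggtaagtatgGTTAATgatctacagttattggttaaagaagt
Acta1: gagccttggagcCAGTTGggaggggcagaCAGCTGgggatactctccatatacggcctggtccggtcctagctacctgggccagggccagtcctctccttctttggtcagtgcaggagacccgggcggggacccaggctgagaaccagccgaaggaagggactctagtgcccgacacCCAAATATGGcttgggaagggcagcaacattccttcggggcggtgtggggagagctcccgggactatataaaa
Ckm: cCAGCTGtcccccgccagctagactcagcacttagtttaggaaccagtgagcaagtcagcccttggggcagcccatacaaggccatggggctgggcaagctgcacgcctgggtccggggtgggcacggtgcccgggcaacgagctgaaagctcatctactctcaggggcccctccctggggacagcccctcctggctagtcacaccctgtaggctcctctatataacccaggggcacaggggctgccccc

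In the Alb window, 1 match each was found to the HNF1 letters, the HNF4 core and the C/EBP site, whose first bases lay 32, 182 and 94 bases before the start. The Acta1 window held 2 E-boxes, at 238 and 221 bases, and 1 CArG box, the letters read by serum response factor, at 73 bases before the start. In Ckm the window held 1 E-box, at 249 bases, and no CArG or MEF2 letters, which describes only this window.

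A match to short letters is a description and not a binding site, and matches also occur widely. Windows were available for 328 of the liver-high and 154 of the muscle-high genes defined below. The HNF1 letters occurred in 13.4% of the liver-high and 3.9% of the muscle-high windows, beside 4.56% of the 6572 windows of tested genes and 6.52% of all 27025 windows. For the HNF4 core these shares were 7.93%, 2.6%, 3.71% and 3.8%. The C/EBP letters were found in 15.5%, 11.7%, 8.46% and 9.55%.

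Of the muscle letters, the E-box form preferred by MyoD (CAGCTG) was present in 21.4% of the muscle-high, 12.8% of the liver-high, 11.2% of the tested and 12.8% of all windows. The general E-box, which includes it, was present in 63.6%, 64%, 58.7% and 66%. CArG boxes occurred in 5.19% of the muscle-high, 0.915% of the liver-high, 1.43% of the tested and 1.4% of all windows, and MEF2 letters in 4.55%, 1.52%, 1.72% and 3.01%. No test was made of these shares.

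Across 8251 genes, each read from 1 probe set, 402 were higher in liver and 190 higher in muscle by at least 4-fold with an adjusted p under 0.05 in limma, which are 4.87% and 2.3% of the genes tested. These genes are called liver-high and muscle-high, and together they made up 7.17% of the genes. Differences are liver minus muscle in log2 units, so 2 units are 4-fold. A test at any size of difference passed 48.2% of the genes, and the groups did not overlap for 51.4%, so neither count says much about a single gene. The median difference over all genes was -0.08. At 16-fold or more, 132 genes were liver-high and 60 muscle-high, and at 128-fold or more, 8 and 7. RMA gives no call of presence: of the 402 liver-high genes, 219 had a muscle mean under 6.21 units, the median over the probe sets of these arrays, and 116 of the 190 muscle-high genes had such a liver mean. For genes near background in 1 tissue the difference understates the change.

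**Figure D1:**
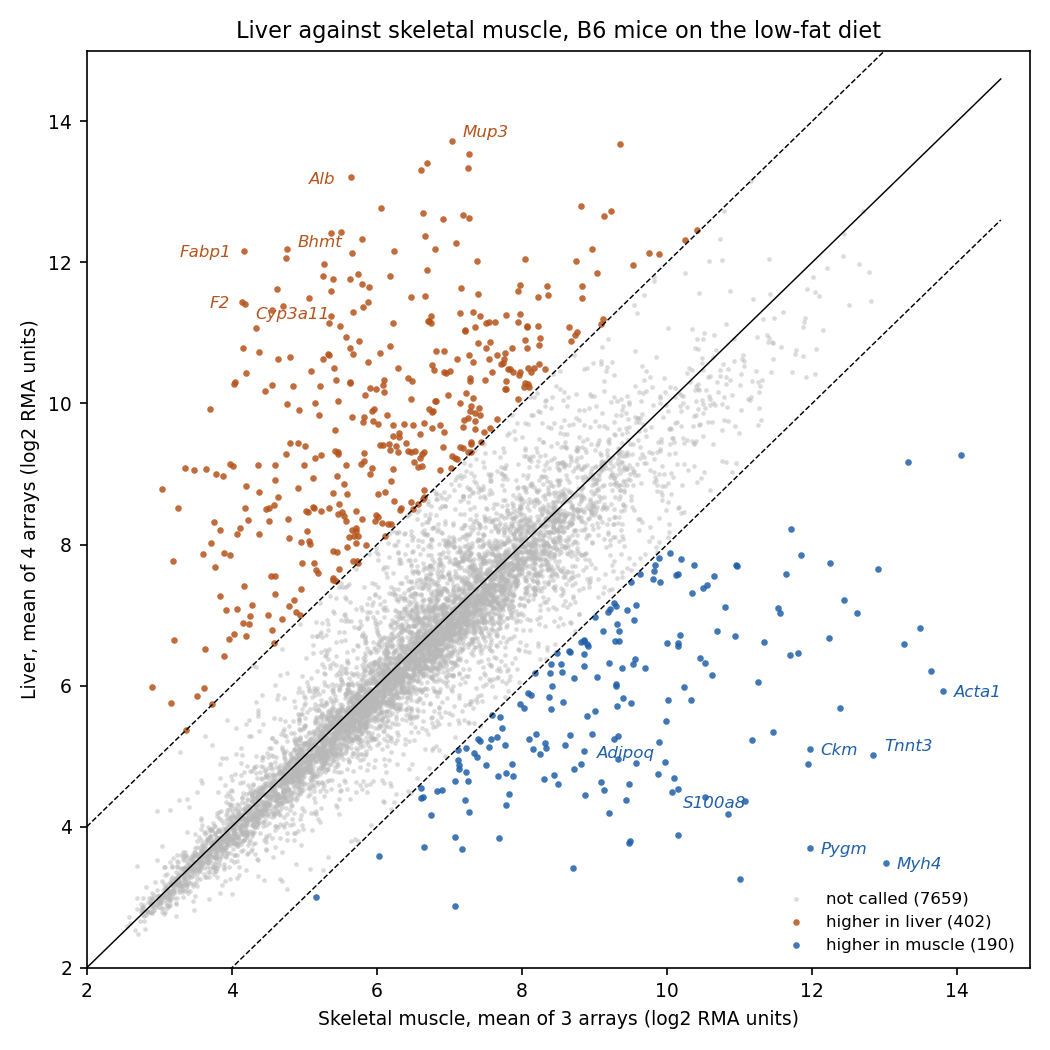
Mean level of each of 8251 genes in liver (4 arrays, vertical axis) against skeletal muscle (3 arrays, horizontal axis), both in log2 RMA units; the solid line marks equal levels and the dashed lines 4-fold. The 402 liver-high genes lie above the upper dashed line and the 190 muscle-high genes below the lower one, with Alb and Myh4 far from equality.

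Nearest to the threshold on the liver side were Cyp26a1 at 2.00 and Pcx at 2.00 just inside it, and Nr1h3 at 2.00 and Nr5a2 at 2.00 just outside it, which differ in the fourth decimal. On the muscle side Ifi27l2a at -2.01 and Retn at -2.01 were just inside, and Emp1 at -2.00 and Sos2 at -1.99 just outside.

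The genes with the largest liver excess covered the main trades of the hepatocyte. Fabp1, the liver fatty acid binding protein, stood at 12.23, 12.12, 12.12 and 12.16 in liver and at 4.32, 4.06 and 4.14 in muscle, a difference of 7.99 ± 0.10 (SE, n = 4 and 3, limma adjusted p = 3.8e-12) or 254-fold. Alb followed at 7.56 ± 0.13 (189-fold, adjusted p = 1.34e-11). Bhmt, which remethylates homocysteine with betaine, differed by 7.43 ± 0.13 (172-fold). Then came Ambp, the precursor of a plasma lipocalin and a protease inhibitor, at 7.32, F2, which encodes prothrombin, at 7.29, and Cyp3a11, a drug-metabolising cytochrome P450, at 7.23. Akr1c6 (a hydroxysteroid dehydrogenase), Uox (urate oxidase) and Gnmt (glycine N-methyltransferase) differed by 7.05, 7.00 and 6.92. The liver and muscle values of each of these genes lay far apart, and the SD within a tissue was at most 0.33 units for any of them.

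Plasma proteins formed the most nearly complete group of liver-high genes. Of 34 measured carrier proteins and protease inhibitors, 29 were liver-high and none was muscle-high, with a median difference of 4.45. Serpina1e, an alpha-1 antitrypsin, stood between 13.34 and 13.52 in liver and between 6.41 and 6.85 in muscle, a difference of 6.72 ± 0.12 (adjusted p = 2.08e-11). Others of the group were Pzp, a broad protease trap, at 6.56, Ahsg, the carrier fetuin-A, at 6.48, Hpx, which binds haem, at 5.89, Ttr, which carries thyroid hormone, at 5.64 and Hamp, the iron hormone hepcidin, at 5.61. The 5 members that were not called were Serpina3n (1.95), Orm2 (1.60), Igf1 (1.47), Saa2 (1.35) and Orm3 (0.54), and all 5 still passed the adjusted p at under 4-fold.

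Apolipoproteins, which package fat for transport, and other genes of lipoprotein handling were liver-high in 14 of 19 measured members, with a median difference of 4.23. Apoh (6.75), Apoc1 (6.71), Apoa1 of high-density lipoprotein (6.08) and Apoc4 (5.56) led, and Apob, the backbone of very-low-density lipoprotein, differed by 5.22. Apoa1 stood at 13.37, 13.24, 13.35 and 13.41 in liver and at 7.12, 7.57 and 7.09 in muscle. The uncalled members were receptors, transporters and lipase regulators rather than apolipoproteins: Pltp (1.95), Scarb1 (1.72), Lrp1 (1.67), Abca1 (1.59) and Angptl4 (0.70).

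The clotting system showed the same breadth, with 16 of 19 measured members liver-high and a median of 4.38. Prothrombin (F2) was at 11.24, 11.52, 11.38 and 11.59 in liver and at 3.99, 4.23 and 4.22 in muscle. The fibrinogen chains Fga, Fgb and Fgg differed by 6.70, 6.25 and 6.24, and Plg, the zymogen of the clot-dissolving plasmin, by 6.54. Antithrombin (Serpinc1) differed by 6.24. F7, a starter of the extrinsic pathway, was the member with the smallest difference, 0.04, beside F8 at 0.98 and Pros1 at 1.34. Complement was liver-high in 9 of 14 members, with a median of 2.75. C4bp and Cfi, both inhibitors of complement, differed by 6.26 ± 0.12 and 6.00 ± 0.13, and C8g and Hc, parts of the membrane attack system, by 5.12 and 4.98. Uncalled complement genes included Cfb (0.64), Cfp (0.64) and C1ra (1.22).

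**Figure D2:**
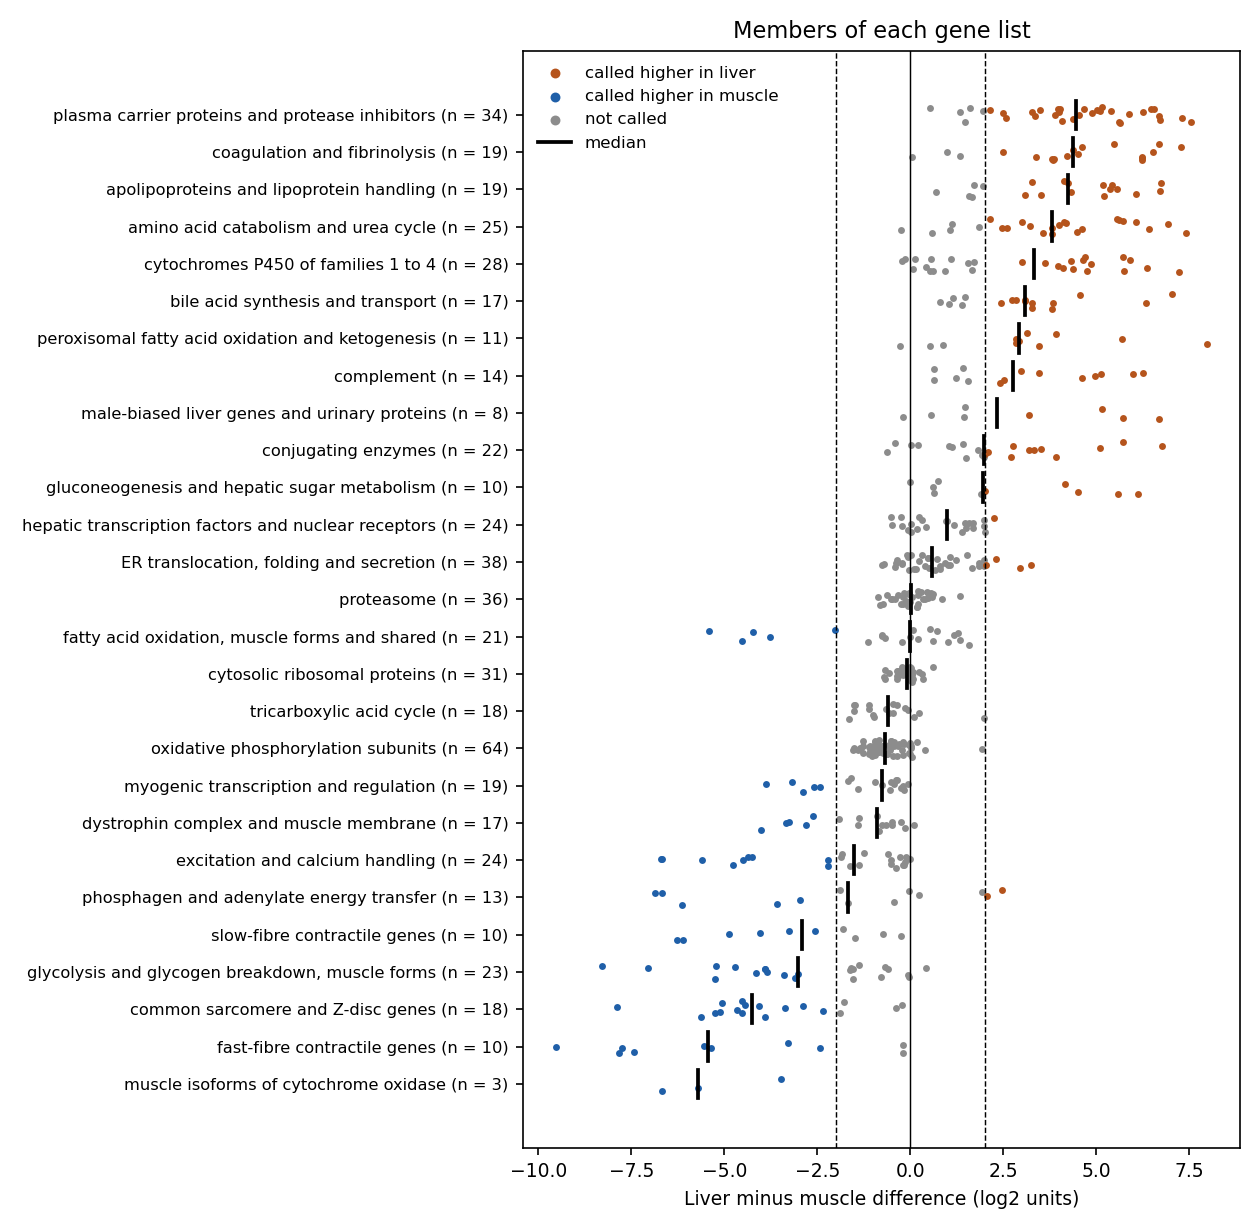
Liver minus muscle difference in log2 units (horizontal axis) of every measured member of each gene list (rows, with the number measured), coloured by call; thick ticks are list medians and dashed lines mark 4-fold. The lists of plasma carriers, clotting and apolipoproteins sit at the top with medians above 4, and complement lies lower at 2.75. Ribosomal proteins and the proteasome lie near 0. Muscle forms of cytochrome oxidase (-5.70) and fast-fibre genes (-5.45) sit at the bottom.

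Enzymes that degrade amino acids and make urea were liver-high in 20 of 25 measured members, with a median of 3.82. Arg1, the last step of the urea cycle, stood at 11.65, 11.51, 11.36 and 11.47 in liver and at 4.64, 5.09 and 5.46 in muscle, a difference of 6.43 ± 0.17 (adjusted p = 2.33e-10). The urea cycle genes Otc, Cps1 and Asl differed by 5.73, 5.62 and 3.01, whereas Ass1, the step between them, differed by 1.08 and was not called. Tat, which starts tyrosine breakdown, differed by 6.08, and Tdo2, which opens the ring of tryptophan, by 5.55. Got1, a transaminase of the cytosol, was the single member with a negative difference, -0.23, with low means of 3.43 in liver and 3.66 in muscle.

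Genes of gluconeogenesis and other hepatic sugar metabolism were liver-high in 5 of 10 measured members (median 1.96). The uncalled members included Galt of galactose use (1.91) and the glycolytic Pfkl (0.75) and Pklr (0.63). Also uncalled were the glucose 6-phosphate transporter Slc37a4 (0.61) and Khk of fructose use (0.00), the latter with low means of 3.72 in both tissues. Fbp1, the fructose bisphosphatase of this pathway, differed by 6.13 ± 0.14, Slc2a2, the glucose transporter GLUT2, by 5.58 ± 0.21, and G6pc, which releases free glucose, by 4.50 ± 0.11. Pck1, the cytosolic phosphoenolpyruvate carboxykinase, stood at 9.59, 9.89, 9.71 and 10.05 in liver and at 6.99, 5.09 and 4.88 in muscle, a difference of 4.16 ± 0.41 (adjusted p = 1.22e-05). Muscle array 13 was the high one, and without it the difference was 4.83 (adjusted p = 5.04e-11).

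Drug- and steroid-modifying enzymes were split between very large and small differences. Of 28 measured cytochromes P450 of families 1 to 4, 15 were liver-high (median 3.33), led by Cyp3a11 (7.23), Cyp2d10 (6.37), Cyp2d26 (5.92) and Cyp4a10 (5.74). Cyp1a1 (0.12), Cyp1b1 (-0.23) and Cyp2b13 (-0.13) were near 0, with low means of 4.845 to 5.105 in either tissue. The conjugating enzymes were liver-high in 11 of 22 members (median 2.00), among them Ugt2b5, a glucuronosyltransferase, at 6.77 ± 0.10 and Gsta3, a glutathione transferase, at 5.71 ± 0.12. Bile acid genes were liver-high in 12 of 17 members (median 3.08). Slc10a1, which takes up bile acids from blood, differed by 6.35 ± 0.15 and Cyp8b1, which makes cholic acid, by 3.83 ± 0.11. Cyp7a1, the rate-limiting enzyme of bile acid synthesis, differed by 1.05 and was not called, with low means of 5.29 in liver and 4.24 in muscle.

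A list of peroxisomal genes with the fatty acid genes Fabp1 and Cpt1a was liver-high in 8 of 11 members (median 2.93), and it held no measured enzyme of ketone synthesis. After Fabp1 came the peroxisomal thiolase Acaa1b (5.71 ± 0.10), Ehhadh (3.92 ± 0.17) and Cpt1a, the liver carnitine palmitoyltransferase (3.47 ± 0.22). In a list of 8 male-biased liver genes and genes of growth hormone action, 4 were liver-high: the major urinary proteins Mup3 (6.68) and Mup5 (5.71), the hydroxysteroid dehydrogenase Hsd3b5 (5.16) and Ghr, the growth hormone receptor (3.20, or 1.61 with its other probe set, which was not called). Hsd3b5 varied within liver, at 8.27, 8.88, 9.83 and 9.57, against 3.95, 4.12 and 3.86 in muscle. The sex of the mice was not stated. The Mup, Serpina1, Cyp2d and Ugt2b genes belong to families of near-identical copies, so which copy a probe set read is uncertain.

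Transcription factors did not show differences of this size. Of 24 measured hepatic factors and nuclear receptors, 1 was liver-high, Cebpa, which drives hepatocyte and fat cell genes, at 11.04, 11.18, 10.98 and 10.84 in liver and 9.21, 8.44 and 8.64 in muscle (difference 2.25 ± 0.17, adjusted p = 1.32e-06). The list had a median of 0.98, and 14 further members passed the adjusted p at under 4-fold. Foxa1, Foxa3 and Foxa2, pioneer factors of liver, differed by 1.58, 1.49 and 0.97. Hnf4a, a nuclear receptor central to hepatocyte identity, had means of 6.08 and 5.90, a difference of 0.18 that did not pass (adjusted p = 0.183). Both its means lay under the median of the probe sets. Ppara, the receptor that controls fatty acid oxidation, had means of 6.94 and 6.92. The secretory apparatus of the endoplasmic reticulum, used by all secreted proteins, was liver-high in 4 of 38 members (median 0.59): Pdia3 (3.24) and Ero1b (2.96), which form disulfide bonds, the chaperone Hspa5 (2.32) and the cargo receptor Lman1 (2.03). Lman1 fell under 4-fold without liver array 2 (1.96) or 4 (1.87) or muscle array 15 (1.90).

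Contractile genes were among those with the largest differences. Myh4, the myosin heavy chain of the fastest fibres, stood at 12.87, 13.16 and 13.02 in muscle and at 3.60, 3.30, 3.55 and 3.49 in liver, a difference of -9.53 ± 0.11 (741-fold higher in muscle, adjusted p = 3.47e-12). Of 10 measured fast-fibre genes, 8 were muscle-high (median -5.45), including the fast troponin T gene Tnnt3 (-7.83 ± 0.17), the second fast myosin Myh1 (-7.74 ± 0.16) and the light chain Myl1 (-7.43 ± 0.15). The remaining fast-fibre members, Myh2 and Tpm1, differed by -0.21 and -0.18, and Myh2 had low means of 3.69 and 3.90.

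Slow-fibre genes were muscle-high in 6 of 10 measured members, with a median of -2.91. Myl3, a slow light chain, stood at 10.51, 10.18 and 9.75 in muscle and between 3.73 and 4.03 in liver (-6.26 ± 0.16). Myl2 differed by -6.11, the slow troponin C gene Tnnc1 by -4.88 and the slow myosin heavy chain Myh7 by -4.05. Tpm3 (-1.79), Atp2a2 (-1.47), Casq2 (-0.74) and Csrp3 (-0.25) were not called. Genes of both fibre types were thus higher in muscle, and since these are different probe sets their levels give no fibre proportion.

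Of 18 measured genes shared by all sarcomeres, 14 were muscle-high (median -4.25). Acta1 had the largest difference at -7.88 ± 0.44 (235-fold, adjusted p = 1.27e-07), or -8.40 without liver array 4 (adjusted p = 3.84e-10). Mb, the oxygen store myoglobin, differed by -5.62 ± 0.15, Tpm2, a tropomyosin, by -5.26 ± 0.12, and Myom1 and Myom2 of the M band by -5.13 and -5.06. Des, the intermediate filament desmin, differed by -3.91. Actn2 and Tcap, both Z-disc proteins, differed by -0.38 and -0.22 and were not called.

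The machinery that couples nerve signals to contraction was muscle-high in 9 of 24 members, with a median of -1.50. Ryr1, the calcium release channel, stood at 11.09, 10.88 and 11.24 in muscle and between 4.29 and 4.42 in liver (-6.71 ± 0.11, adjusted p = 1.05e-11). The calcium pump Atp2a1 differed by -6.67 ± 0.10, the calcium store protein Casq1 by -5.59 ± 0.12, the voltage sensor Cacna1s by -4.36 and the fast-fibre calcium buffer Pvalb by -4.77 ± 0.12. Subunits of the acetylcholine receptor at the nerve contact, Chrna1 (-0.59), Chrnb1 (-1.23), Chrnd (-0.11), Chrne (-0.18) and Chrng (-0.01), were not called. Genes of the dystrophin complex and of the muscle membrane were muscle-high in 5 of 17 members (median -0.90). Among them were Bin1, which shapes the T-tubules, at -4.00, Sspn at -3.33, Ank1 at -3.26 and Sgca at -2.80. Dmd itself, the dystrophin gene, differed by -0.47.

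Of 19 measured regulators of the muscle programme, 5 were muscle-high (median -0.75): Mef2c, Hspb2, Ankrd2, Smyd1 and Mstn. The other probe sets of Hspb2 (-1.85) and Smyd1 (-0.67) were not called. Mef2c, a transcription factor of muscle genes, stood at 7.36, 8.98 and 9.15 in muscle and between 4.34 and 4.79 in liver, a difference of -3.88 ± 0.36 (adjusted p = 6.28e-06). Muscle array 13 was the low one, and without it the difference was -4.45 (adjusted p = 7.2e-11). Mstn, the growth inhibitor myostatin, stood at 6.50, 7.09 and 7.64 in muscle against 4.54 to 4.78 in liver (-2.43 ± 0.21). The myogenic factors Myf6, Myod1, Myf5 and Myog differed by -1.60, -0.75, -0.52 and -0.35 and were not called.

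Genes of energy supply formed another block of muscle-high genes. Of 23 measured genes of glycolysis and glycogen breakdown, 12 were muscle-high (median -3.02). Pygm, the muscle glycogen phosphorylase, stood at 11.95, 11.99 and 11.99 in muscle and at 3.66, 3.70, 3.71 and 3.73 in liver (-8.28 ± 0.08, 310-fold, adjusted p = 1.92e-12). Pgam2 differed by -7.05 ± 0.09, Pkm by -5.25 ± 0.11, Eno3 by -5.22 ± 0.09 and Pfkm by -4.72 ± 0.11, and all are glycolytic enzymes. Ldha (-1.37) and Pgk1 (-0.60) were not called.

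The buffers that regenerate ATP gave 5 muscle-high genes of 13 (median -1.68). Ckm differed by -6.86 ± 0.11 (117-fold), its mitochondrial partner Ckmt2 by -6.66 ± 0.12, the adenylate kinase Ak1 by -6.12 ± 0.09, the adenylosuccinate synthase Adssl1 by -3.59 ± 0.22 and the creatine transporter Slc6a8 by -2.98. In the same list, 2 genes were liver-high: Gamt, which completes creatine synthesis, at 10.61, 10.55, 10.23 and 10.38 in liver against 8.15, 7.99 and 7.77 in muscle (2.48 ± 0.13), and the mitochondrial adenylate kinase Ak3 at 2.07 ± 0.19. Ak3 fell under 4-fold without liver array 4 (1.96) or muscle array 14 (1.98) or 15 (1.92), and the other probe set of Gamt gave 0.23. Gatm, the first enzyme of creatine synthesis, differed by 0.24.

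Among genes of the respiratory chain, the muscle forms stood out. The 3 measured muscle forms of cytochrome oxidase subunits, Cox6a2, Cox7a1 and Cox8b, differed by -6.67, -5.70 and -3.48. Of 64 other subunits of oxidative phosphorylation, none was called in either direction, although 51 passed the adjusted p at under 4-fold, and their median was -0.69 beside -0.08 over all genes. The 18 genes of the tricarboxylic acid cycle likewise gave no call, with a median of -0.61 and 14 past the adjusted p. In fatty acid use, 5 of 21 genes were muscle-high (median -0.01): Fabp3, the muscle fatty acid carrier (-5.41), Lpl, which frees fatty acids from lipoproteins (-4.53), Pdk4, which restrains glucose oxidation (-4.24), Oxct1, which activates ketone bodies for use (-3.78), and Ucp3 (-2.03). The oxidation enzymes Acadm, Acadvl and Hadhb differed by 0.20, 0.07 and -0.21, with low Acadvl means of 4.08 and 4.00.

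Basal machinery served as a reference. None of 31 ribosomal protein genes was called, with a median of -0.09 and a range from -0.70 to 0.61, and 6 of them passed the adjusted p in limma. None of 36 proteasome genes was called, with a median of 0.02, and 17 passed the adjusted p.

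For 14 pairs of related genes, of which one form is named for liver or wide use and the other for muscle, both forms were measured. For each gene its own tissue difference was taken, and no level of one probe set was set against another. In 2 pairs both forms were called, in opposite directions: Fabp1 (7.99) with Fabp3 (-5.41), and the glucose transporters Slc2a2 (5.58) with Slc2a4, the insulin-responsive GLUT4 (-3.40 ± 0.13). In 9 pairs the muscle form alone was called. Examples were Pgam2 with Pgam1 at 1.77 ± 0.17, Slc25a4, an ADP/ATP carrier at -6.70 ± 0.12, with Slc25a5 at 0.41 ± 0.10, and Ckm with Ckb at -0.43 ± 0.11. In 2 pairs the liver form alone was called, Fbp1 with Fbp2 at -1.59 ± 0.15 and the bile acid and fatty acid ligase Slc27a5 (4.56 ± 0.12) with Slc27a1 at -0.77 ± 0.10. The insulin receptor substrates Irs2 (-0.28) and Irs1 (0.14) gave no call. No liver form was muscle-high and no muscle form liver-high, and 10 pairs had a positive difference for the liver form and a negative one for the muscle form. In the pyruvate kinase pair, Pklr differed by 0.63 with the probe set used and by 3.43 with its other probe set, which was called.

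**Figure D3:**
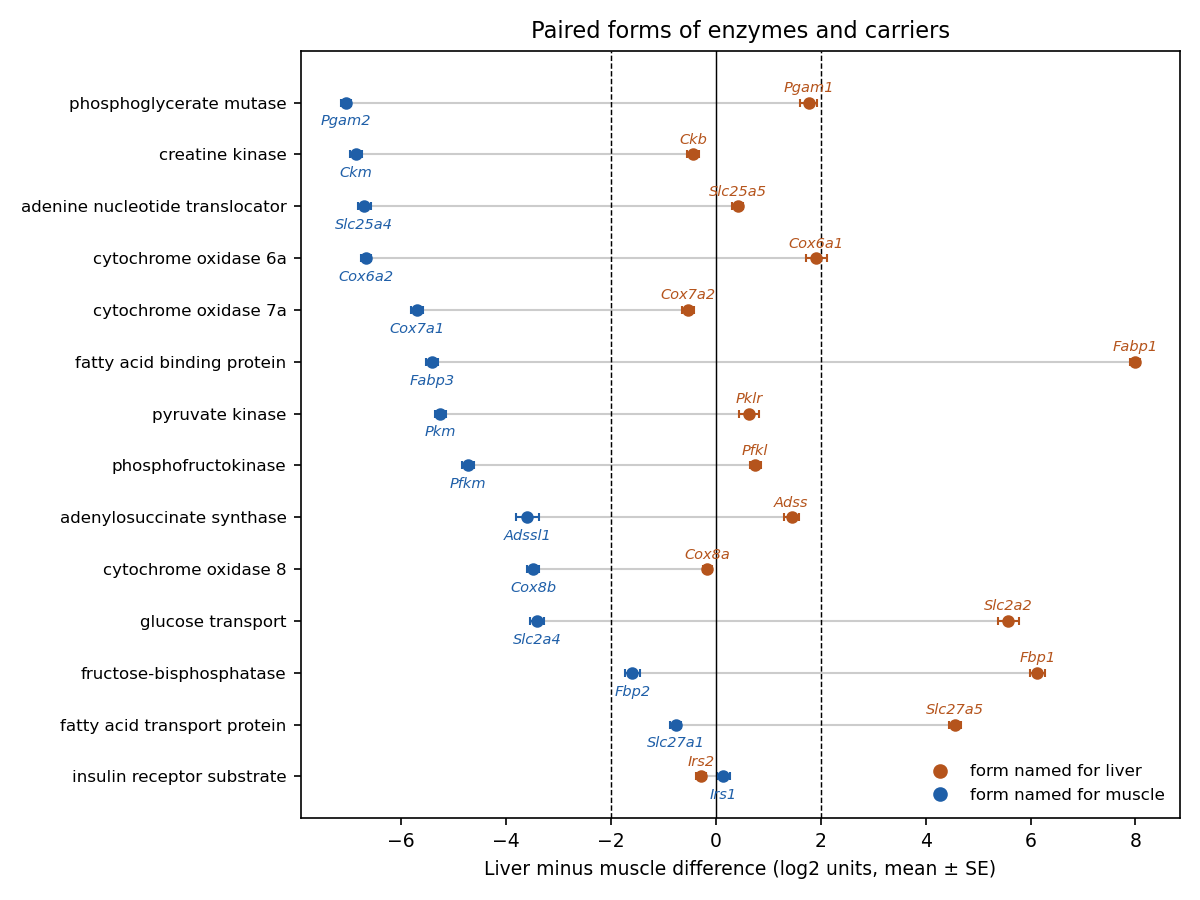
Liver minus muscle difference (horizontal axis, log2 units, point ± SE from limma, n = 4 and 3) of both forms in 14 pairs of genes, with dashed lines at 4-fold. Muscle forms reach -7.05 (Pgam2) and liver forms 7.99 (Fabp1), while Slc25a5 (0.41) and Cox8a (-0.16) lie near 0, Cox8a with low means of 3.39 and 3.55.

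Further probe sets of the named genes often gave other values. Of 33 named genes with another probe set, 19 had at least 1 that was not called in the same way. They included Fabp1 (0.47), Bhmt (0.21), Myh4 (-0.51), Ckm (-0.03), Mb (0.24) and Myh7 (-0.45). For Mb, C8g (-0.20) and Ckmt2 (0.07) the sign differed from the value used, with adjusted p of 0.18, 0.273 and 0.664. In the other direction, further probe sets gave -8.01 for Pvalb, -5.36 for Cox8b, -7.82 for Atp2a1 and -4.87 for Ank1, beyond the values used. These probe sets had lower means on these arrays, since the brightest was used for each gene.

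Some muscle-high genes are known markers of other cell types. Adipoq, the fat cell hormone adiponectin, stood at 10.34, 9.85 and 9.74 in muscle and between 4.75 and 5.00 in liver (-5.06 ± 0.14, adjusted p = 4.19e-10), beside a mean of 12.32 on the epididymal fat arrays of the same strain and diet. Retn, a second fat cell hormone, was also muscle-high (-2.01), and these were 2 of 7 measured adipocyte markers. Of the 7, 5 were highest on array 13 among the muscle arrays, and without it Retn differed by -1.80 and Adipoq by -4.88. Fabp4, Cidec and Lipe differed by -1.41, -0.61 and -0.56, whereas Car3 was higher in liver, by 0.64. Lep, which marks fat cells closely, stood at 9.01, 9.01 and 9.07 in muscle, at 8.83 to 8.97 in liver and at 12.13 in fat. The part of fat cells in the muscle-high genes was not tested.

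Granulocyte genes were also higher in muscle and varied between its arrays. S100a8, a calcium-binding protein of neutrophils, stood at 11.90, 7.94 and 10.38 in muscle and between 4.43 and 4.60 in liver (-5.57 ± 0.69, adjusted p = 6.37e-05). Its partner S100a9 (-4.61), the antimicrobial Camp (-2.62) and Ngp (-3.20) were muscle-high as well, 4 of 15 measured genes of a list assembled after their values were seen. Of these 15, 13 were highest on muscle array 13 among the muscle arrays, and without that array the differences were -4.66 for S100a8, -3.46 for S100a9, -1.50 for Camp and -2.19 for Ngp. The granule enzyme Mpo stood at 8.06 on array 13 and at 4.70 and 5.50 on the others.

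Red cell genes followed the same array, with 4 of 5 measured markers highest on array 13. Slc4a1, the anion exchanger of the red cell membrane, stood there at 8.95 beside 5.87 and 5.82 on the other muscle arrays, and Alas2, which starts haem synthesis, at 9.91 beside 7.11 and 7.83. None of the 5 was called between the tissues with all 7 arrays. Alas2 stood at 9.59 to 9.87 in liver. Its difference was 1.44 with array 13 and 2.257 without it, which is beyond 4-fold. Without that array the others differed by -0.47 (Hba-a1), -0.97 (Hbb-b2), -0.29 (Slc4a1) and 0.07 (Epb42). The part of the red cell genes in the result was not tested. Leaving out array 13 kept 572 of the 592 calls.

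Other cell types gave few calls. Among nerve markers, 1 of 5 was muscle-high, the myelin gene Pmp22 (-2.26). It stood at 7.44, 6.84 and 7.12 in muscle, beside a higher mean of 8.31 in epididymal fat of the same strain and diet. No macrophage (14 measured), lymphocyte (9), endothelial (9), fibroblast (14), biliary (4) or pancreatic acinar (6) marker was called. The nearest was Clec4f, a gene of Kupffer cells, the resident macrophages of liver, at 7.79, 8.19, 8.32 and 8.29 in liver against 6.07, 6.28 and 6.13 in muscle (1.98 ± 0.14). Collagen genes of fibroblasts differed towards muscle, with Col1a1 at -1.79 and Col3a1 at -1.39.

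**Figure D4:**
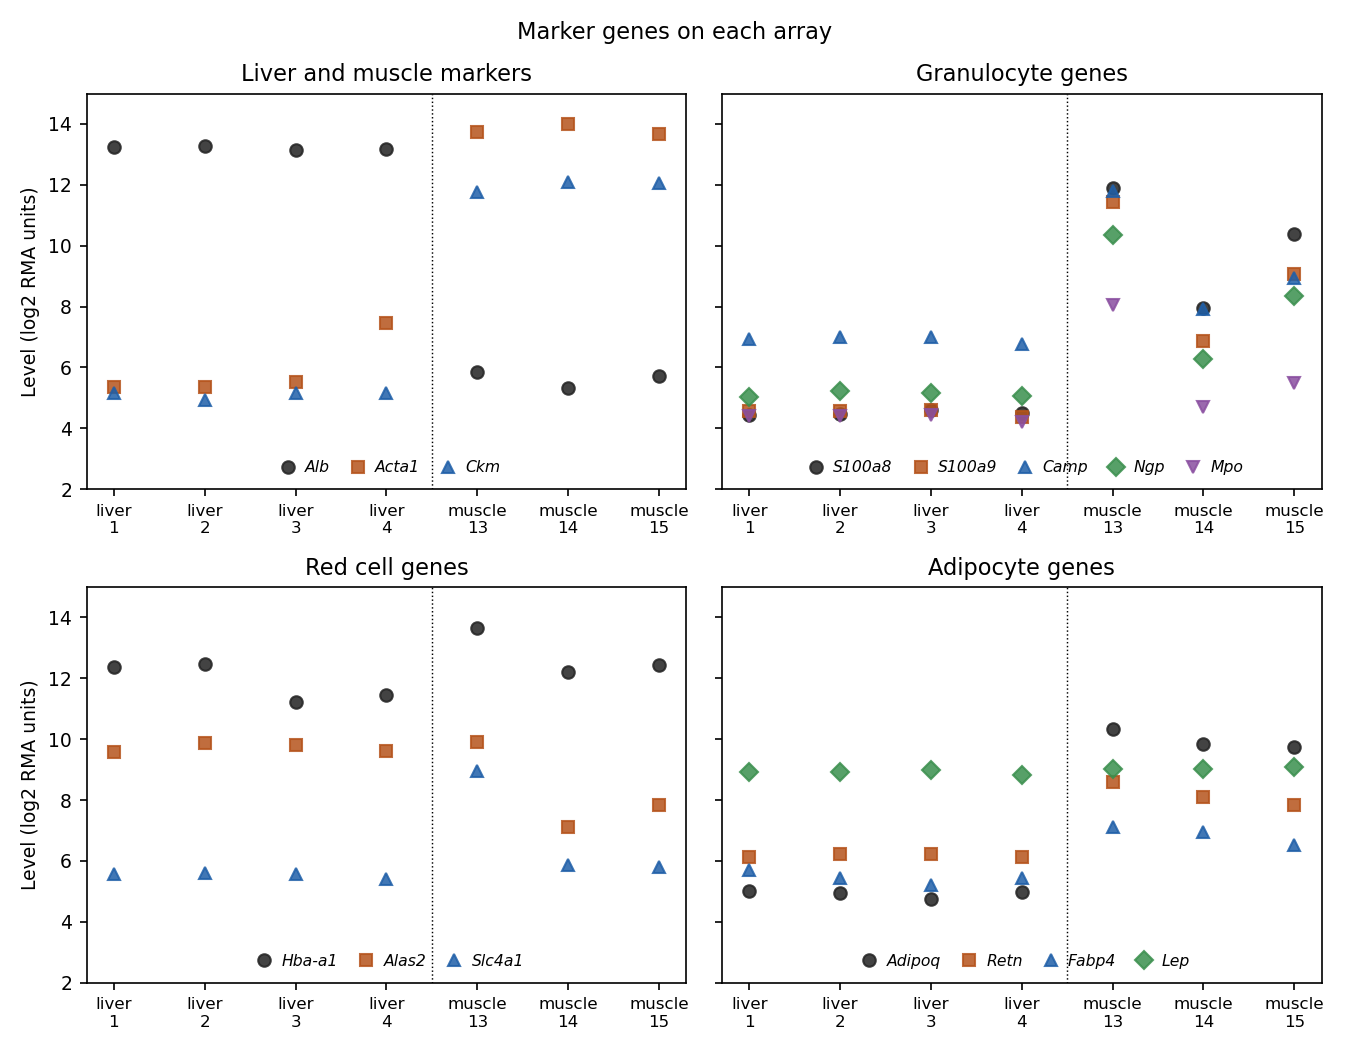
Level in log2 RMA units (vertical axis) of marker genes on each of the 7 arrays (horizontal axis, liver arrays left of the dotted line, muscle arrays right). Alb, Acta1 and Ckm separate the tissues, S100a8 and the other granulocyte genes are highest on muscle array 13, and Adipoq is high on all 3 muscle arrays.

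Control probe sets showed how the arrays of the tissues differed technically. The 3′ minus 5′ signal of Gapdh, a measure of RNA and cDNA integrity, was 1.26 ± 0.44 (SD, n = 4) in liver and 0.63 ± 0.25 (n = 3) in muscle (exact two-sided permutation p = 0.0571, adjusted over 4 measures 0.0762). The test doubles the smaller tail. Computed in this way with 4 arrays against 3, 0.0571 is the smallest p it can give, so it cannot reach 0.05. For actin the 3′ minus 5′ signal was 1.37 ± 0.15 in liver and 1.24 ± 0.68 in muscle (exact permutation p = 0.743, adjusted 0.743). Muscle array 15, at 2.02, was above every liver array (1.26 to 1.59), so the 2 integrity controls differed. The spread of values within an array had an SD of 1.90 in liver and 1.79 in muscle, with an exact permutation p of 0.0571. A control probe set for the sense strand of Gapdh stood between 6.60 and 7.06 in liver and at 7.53, 9.31 and 11.66 in muscle. With the Gapdh signal as a covariate, the call count was 607. Over genes, correlations were at least 0.989 between liver arrays and at least 0.973 between muscle arrays, and 0.757 to 0.785 between tissues.

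The same contrast was then made in the 3 other combinations of strain and diet, whose arrays are not shared with the B6 low-fat groups. Among the 402 liver-high genes, 325 (80.8%) were liver-high in low-fat 129S6 mice, 330 (82.1%) in B6 mice on the high-fat diet and 308 (76.6%) in 129S6 mice on the high-fat diet, where 4.14%, 5.51% and 4.06% of all genes were. These made up 95%, 72.5% and 91.9% of the liver-high genes of those groups. For the 190 muscle-high genes the counts were 135 (71.1%), 94 (49.5%) and 154 (81.1%), where 1.75%, 1.38% and 2.34% of all genes were, and these made up 93.8%, 82.5% and 79.8% of the muscle-high genes there. Across all 4 combinations, 268 liver-high and 78 muscle-high genes were called, and 35 and 24 were called in B6 low-fat mice and in none of the others. Myh4 differed by -9.12, -8.61 and -9.76 in the other groups and Alb by 6.48, 7.13 and 6.33. On 129S6 low-fat muscle array 12, Alb stood at 8.81, beside 5.53 to 6.51 on the other muscle arrays of that group. On 129S6 high-fat muscle arrays 1, 2, 3 and 4 it stood at 8.73, 5.84, 6.24 and 7.33. Since the genes were selected on the B6 low-fat arrays, smaller values elsewhere are not read as a difference.

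Arrays that stand apart are part of the counts above for low-fat 129S6 and high-fat B6 mice, and of the next comparisons. All 4 muscle arrays of B6 high-fat mice and array 9 of the 129S6 low-fat muscle group had an SD over genes of 1.53 to 1.67, beside 1.75 to 1.94 on all other liver and muscle arrays. On these 5 arrays the proteasome gene Psmb5 stood at 3.17 to 4.23 and the elongation factor Eef2 at 6.15 to 7.20, whereas on the 3 B6 low-fat muscle arrays they stood at 8.38 to 9.63 and at 10.37 to 10.70.

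Whether the tissue difference itself differed between strains was tested on the low-fat diet with 15 arrays. The liver arrays of the strains fall in separate ranges of running numbers, so strain and array run cannot be told apart in liver. The liver minus muscle difference was more positive in B6 than in 129S6 for 43 genes (0.521% of those tested) and more negative for 12 (0.145%), and 23 of these 55 genes were among the 592. Without array 9 of the 129S6 muscle group the count was 325, which includes all 55. It was 22 without B6 muscle array 14, 28 without 15, 26 without 129S6 muscle array 12, 35 without B6 liver array 2, 30 without 4, 32 without 129S6 liver array 5, 35 without 6 and 85 without 11.

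Cidea, a lipid droplet protein of fat cells and fatty liver, showed the largest such change. It stood at 9.84, 9.42, 8.52 and 9.54 in B6 liver and at 5.70 to 5.91 in 129S6 liver. In muscle it stood at 6.56, 6.32 and 6.43 in B6 and at 7.32, 9.65, 7.90 and 8.81 in 129S6, so the tissues were in the opposite order in the strains (2.89 and -2.60, difference 5.49 ± 0.57, adjusted p = 0.000152). Thrsp and Fasn, both of fat synthesis, showed a strain difference of 3.65 ± 0.68 (adjusted p = 0.0215) for Thrsp and 3.12 ± 0.61 (adjusted p = 0.0315) for Fasn. These calls were not stable: Thrsp lost its call in 5 and Fasn in 11 of the 15 fits that left out 1 array, with adjusted p of up to 0.0835 and 0.11.

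On the 129S6 muscle arrays the brown fat gene Ucp1 stood at 6.54, 9.70, 8.65 and 9.62, against 5.96, 5.74 and 5.60 in B6 muscle, and its own difference of 2.81 did not pass (adjusted p = 0.118). Adipoq was at 9.49 to 10.00 on the same 129S6 arrays and 9.74 to 10.34 in B6, and Lep at 8.80 to 9.38 and 9.01 to 9.07. Cidea, Thrsp, Fasn and Ucp1 were each lowest on array 9 and highest on array 10 of that group. The part of brown fat cells in these values was not tested.

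Fga, a fibrinogen chain, was lower in 129S6 liver, at 8.36 to 8.89 beside 11.94 to 12.01 in B6 liver, while muscle means were 5.65 and 5.28 (difference 3.71 ± 0.26, adjusted p = 2.96e-06). Its partner Fgb had tissue differences of 6.25 in B6 and 6.21 in 129S6. 0610005C13Rik differed by 3.45 ± 0.22 (limma adjusted p = 1.82e-06), with liver means of 10.30 in B6 and 6.99 in 129S6. Vnn1, a pantetheinase, differed by 2.88 ± 0.26, with liver means of 8.56 in B6 and 5.78 in 129S6. In the negative direction stood Pla2g7, a lipoprotein-associated phospholipase, at 6.50, 6.89 and 6.84 in B6 muscle and 4.78 to 5.19 in 129S6 muscle (-2.24 ± 0.23, adjusted p = 0.000152). Apoa4, an apolipoprotein of fat transport, had liver means of 9.58 in B6 and 11.64 in 129S6 (-1.89 ± 0.35, adjusted p = 0.0215), and Cyp2c39 had 7.52 and 9.55 (-1.95 ± 0.33, adjusted p = 0.0124). Apoa4 lost its call in 5 of the 15 fits that left out 1 array and Cyp2c39 in 2, with adjusted p of up to 0.0835 and 0.0525.

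**Figure D5:**
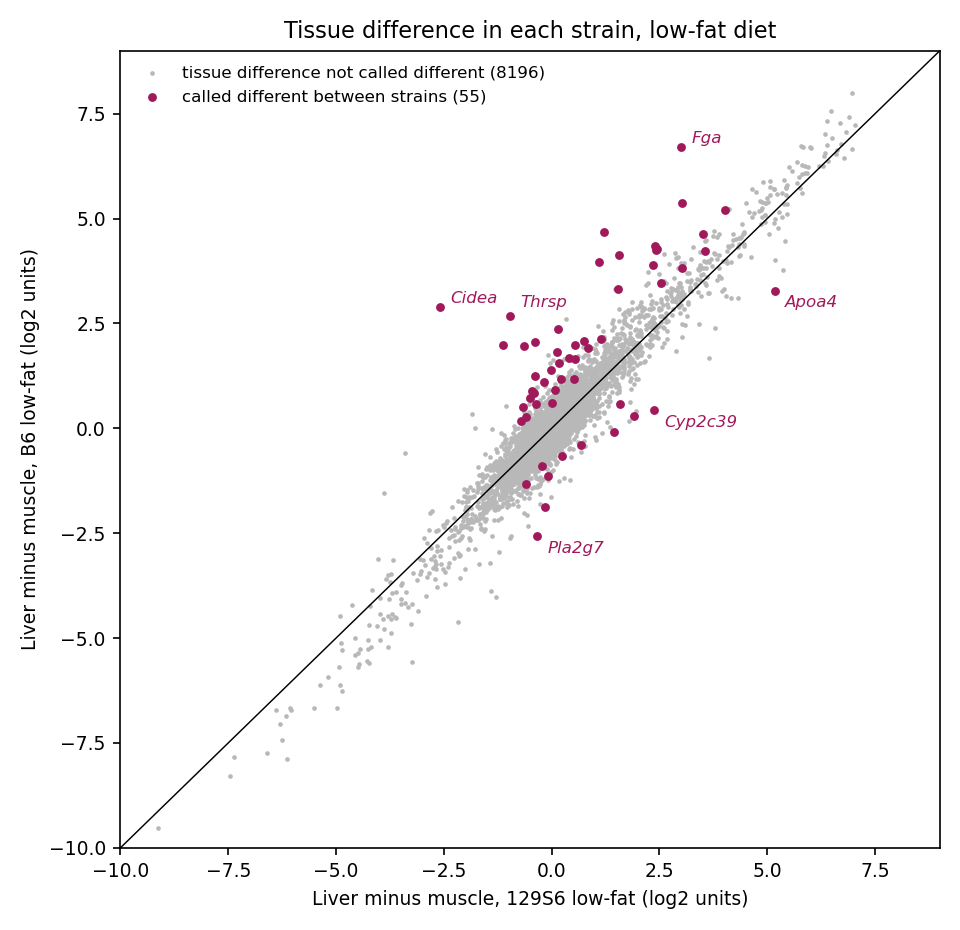
Liver minus muscle difference of 8251 genes in B6 (vertical axis) against 129S6 mice (horizontal axis) on the low-fat diet, in log2 units; the line marks equal differences and the 55 coloured genes were called different by limma. Most genes lie along the line, Cidea and Thrsp are positive in B6 and negative in 129S6, and Fga lies furthest above the line among genes with a large difference in both.

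Against B6 mice on the high-fat diet the tissue difference was more positive for 907 genes (11%) and more negative for 816 (9.89%). All 4 high-fat muscle arrays behind these 1723 calls stand apart, so array state and diet cannot be told apart, and with the SD of each array as a covariate the count was 790, of which 571 were among the 1723. Without B6 low-fat muscle array 13 it was 1091. Psmb5 had the largest change, -4.85 ± 0.39, with muscle means of 8.98 and 3.62 on the low-fat and the high-fat diet, but its probe set without a shared-probe suffix gave -0.07 (adjusted p = 0.828). Pkm changed by -4.23 ± 0.58 and Gsn, the actin-severing protein gelsolin, by -3.94 ± 0.58, again with the gap in muscle. Hsd3b5, whose muscle means were 3.98 and 3.95, changed by 3.87 ± 0.56 (adjusted p = 0.000251) through liver, from 9.14 to 5.25. The low-fat and high-fat B6 liver arrays also fall in separate ranges of running numbers. Their Gapdh 3′ minus 5′ signals were 0.824 to 1.692 and 0.225 to 0.346. In liver, diet and array run can therefore not be told apart. Serpina12, the adipokine vaspin, changed by 2.60 ± 0.46 with liver means of 9.13 and 6.92, and Mrm3, a mitochondrial rRNA methyltransferase, by 2.02 ± 0.38, or 1.22 with the covariate (adjusted p = 0.0562).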

How the data were processed

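The authors deposited log2 expression values computed with RMA, per the submitters' processing notes, which subtracts background, equalises array distributions and summarises probes. No RMA version was stated. Values ran from 2.26 to 14.26, with medians of 6.11 to 6.17 on the 7 arrays, and precision is limited by how few arrays there were. Of 12488 probe sets, 66 were controls, 10833 had 1 gene symbol, 396 several and 1193 none. Symbols came from the platform annotation, of which 10817 were matched by Entrez ID and 16 not. Each of 8251 genes was read from its brightest probe set, by the mean on these 7 arrays. Groups followed the labelled tissue, strain and diet.

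The groups were compared with limma 3.58.1 in R 4.3.3, with Benjamini-Hochberg adjustment over all genes; a call needs an adjusted p under 0.05 and a 4-fold difference. The other strain and diet groups were fitted alike, and differences between them were tested as an interaction over 15 arrays, on the adjusted p alone. On simulated arrays with 8251 genes, all 50 genes changed by 2.5 log2 units, all 50 by 3 and all 50 by 4 were called, none of 50 changed by 1, and 0 unchanged genes. On the adjusted p alone, 4 unchanged genes passed. The simulated noise was independent between genes, without an effect of array run, and no size lay between 1 and 2.5 units. Interaction tests were not simulated. The lists, 36 and 1 more assembled later, and the genes compared were chosen with earlier results of these data known.

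Genes named were drawn from the 12 largest differences each way, the 4 largest called differences of each list and the paired forms. Others came from the markers, called regulators, the 6 largest each way of each interaction and the 2 nearest the threshold on each side. Not every such gene was named. Other list members were named after their values were seen. Alternatives were other probe sets, filters, normalizations and variance models, all 45 arrays, an 8-fold threshold and leaving out each array; 3 covariate fits were added after seeing the data. Plots used Python 3.11.15 and matplotlib 3.10.9.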

Additional observations from a re-analysis of the deposited data

Results flagged for a closer look

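Among 108 named genes, 7 had a liver array far from the other 3 by Dixon's criterion, which chance alone does for about 1 in 20 genes. These were Acta1 on array 4 (7.48), Myh1 on array 4 (3.72), Ckm on array 2 (4.92), Myom1 on array 1 (5.02), Adssl1 on array 1 (6.31), Akr1c6 on array 1 (12.13) and Cyp4a10 on array 3 (8.17). The 5 muscle genes among them were all far lower in liver than in muscle, so the gaps are small beside the tissue difference.

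Genes whose tissue difference differed between groups by the interaction test numbered 55 against 129S6 low-fat mice and 1723 against B6 high-fat mice. For the strain they included Cidea (5.49), Fga (3.71), Thrsp (3.65), Apoa4 (-1.89), Cyp2c39 (-1.95) and Pla2g7 (-2.24). For the diet they included Hsd3b5 (3.87), Serpina12 (2.60), Mrm3 (2.02), Gsn (-3.94), Pkm (-4.23) and Psmb5 (-4.85). All high-fat muscle arrays of the diet comparison stand apart in their spread, and this cannot be told apart from diet. In liver, array run cannot be told apart from strain or from diet in these comparisons.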

How the results depend on the processing

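The 592 calls between liver and muscle ranged from 582 to 606 when single arrays were left out (liver-high 390 to 417, muscle-high 189 to 202), and 545 of them kept their call whichever array was left out. With an 8-fold threshold there were 346 (241 liver-high and 105 muscle-high). Among named genes, Ckm (-0.03), Ghr (1.61) and Hspb2 (-1.85) lost their calls with suffix-free probe sets, Myh4 (-0.51), Myh7 (-0.45) and Gamt (0.23) with the probe set brightest over 45 arrays, and Cebpa (1.97), Ak3 (1.93) and Lman1 (1.83) with quantile normalization. Ak3 (1.97) and Lman1 (1.93) also lost theirs with ribosomal and proteasome scaling, and Ak3 with the Gapdh covariate (1.87). The strain interaction (55, with 43 and 12 in the positive and negative direction) was less stable: single arrays left out gave 22 to 325 (20 to 265 and 2 to 60), all 45 arrays 92 (71 and 21), and leaving out 129S6 muscle array 9 with the Gapdh signal as covariate 765 (562 and 203). Its negative calls were 19 with all probe sets and 7 without the dimmest genes. With a replicate block for the numbers 11 and 12, shared by 129S6 liver and muscle arrays, there were 87 (66 and 21); liver and muscle of B6 low-fat mice share no number. Diet interaction calls ranged from 1091 to 2244 with single arrays left out (467 to 1252 and 624 to 992), with 1102 from all 45 arrays (454 negative) and 790 with the array SD (356 and 434). The causes were not tested.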
